A study of Mus musculus with 4 samples.

Results

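The mouse histone genes measured here were 65 replication-dependent genes, which lie in clusters, and 15 genes of histone variants. Members were all protein-coding genes whose GENCODE vM21 symbol begins with Hist and a digit, or with H1f, H2af or H3f, without use of any measured value. They made up 80 of the 50600 genes in the count tables, of which 21764 were protein-coding. The data were RNA sequencing of primary T cells from C57BL/6NJ mice, in 4 libraries that the labels number as biological replicates 1 to 4 of 1 group, so there was no second condition. The file headers describe the cells as mmTh0, activated, bulk, at 72 h, and the labels link a protocol for CD4+ T cell differentiation. Sex and age were not recorded, and the labels give the 4 libraries the same donor entry. The deposited molecule is total RNA, while the linked library protocol is named for poly(A)+ RNA. The sources used here do not settle which applies.

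The libraries held 58522696, 53569919, 49613182 and 94222415 counted read pairs in replicates 1 to 4. Xist, the RNA of the inactive X chromosome, lay at 331.9 and 150.1 TPM in replicates 1 and 2 and at 0.877 and 0.392 TPM in replicates 3 and 4. The Y-linked Ddx3y lay at 0.0344 and 0.0834 TPM in replicates 1 and 2 and at 48.97 and 45.8 TPM in replicates 3 and 4. Replicates 1 and 2 therefore had the sex-linked RNA of female cells and replicates 3 and 4 that of male cells, although they carry 1 donor entry. The 4 libraries thus did not all come from 1 animal, and nothing in the labels says how many animals there were. All p-values below measure only the spread between these libraries. All 10 T cell markers examined were at 1 TPM or more in every library, Cd3e of the receptor complex at a mean of 272 TPM and Cd4 at 1056 TPM. Trac, Cd5 and Trbc2 were the highest, at 1768, 1567 and 1442 TPM, and Cd28 the lowest at 187 TPM. Of 12 markers of other cell types, 1 was (Epcam, 2.74 ± 0.80 TPM), 3 (S100a8, Pf4 and Hbb-bs) had 0 counts, the B cell gene Cd79a was at 0.896 TPM and Col1a1 of fibroblasts at 0.807 TPM, and the 12 summed to between 5.01 and 6.34 TPM per library.

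Histones package DNA into nucleosomes, each wound around pairs of H2A, H2B, H3 and H4, with H1 on the linker. The cluster genes supply most of these proteins during DNA replication. Their messages carry no poly(A) tail: they end shortly after a conserved stem-loop that is bound by the protein encoded by Slbp and cut at the 3' end with the help of the U7 small nuclear ribonucleoprotein. Variants such as H3.3 (H3f3a and H3f3b) and H2A.Z (H2afz and H2afv) are made throughout the cell cycle from ordinary genes with polyadenylated messages. TPM below means a gene's counts per base of counted exon, scaled to the same total in every library.

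The stem-loop is the feature that sets the messages of the cluster genes apart, so it is shown first. A stem of 6 perfectly paired bases that starts with GG around a loop of 4 bases (T, any base, T, any base) was searched in the vM21 transcripts on the sense strand. It was found in 44 of 65 cluster genes and, among the 15 variants, in H2afx alone. It was found in 174 of 21764 protein-coding genes (0.799%), 129 of them not members. Several cluster genes without a match, such as Hist1h2ai and Hist1h2ak, have transcripts annotated only to the stop codon. The bases past it were not searched there, so a missing match does not show that a gene lacks the stem-loop. Shown are the stem-loops of the 4 highest cluster genes that hold one, of a gene of the pair described later, and of H2afx. The capitals mark the stem and loop, and each sequence is on the sense strand of its gene.
Hist1h4i: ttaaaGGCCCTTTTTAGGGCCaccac
Hist1h1c: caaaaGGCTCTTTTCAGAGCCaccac
Hist1h2ae: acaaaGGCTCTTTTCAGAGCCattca
Hist1h3c: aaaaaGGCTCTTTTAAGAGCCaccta
Hist1h2bj: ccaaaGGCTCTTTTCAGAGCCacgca
H2afx: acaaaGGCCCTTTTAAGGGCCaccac
The core shown for Hist1h1c was the most frequent, in 24 of the 44 cluster genes. The core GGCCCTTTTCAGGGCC was in 7 and that of Hist1h3c in 6. The remaining 7 genes held 5 other cores, and the core of Hist1h4i was shared by 2 genes. The core of H2afx was in none of the 44.

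The variants were the high group and the cluster genes the low one, in every library. Summed over the 65 cluster genes the level was 132 TPM in replicate 1, 172 in replicate 2, 137 in replicate 3 and 168 in replicate 4 (mean 152 ± 20.3, SD, n = 4). Summed over the 15 variants it was 2328, 2514, 2285 and 2466 TPM (mean 2398 ± 109). The sums did not overlap. The variant sum was 15.9 ± 1.47 times the cluster sum, and 3.99 ± 0.13 on the log2 scale, higher in 4 of 4 libraries (exact two-sided sign-flip permutation test, p = 0.13). That is the smallest p that 4 libraries allow with 16 sign patterns, so the test could not pass 0.05. As counts scaled by library with TMM factors and not divided by length, the log2 difference was 5.77. In bulk samples fewer cells of a type and less RNA per cell cannot be told apart. Poly(A) selection would recover the cluster messages poorly, and its part in the difference was not tested.

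Of the 65 cluster genes, 21 (32.3%) had at least 1 TPM in every library, called detected here, against 10 of 15 variants (66.7%). Over all protein-coding genes the share was 49.4%. Cluster genes had a median of 0.845 TPM, variants 67.7 and all protein-coding genes 1.21. A count of 0 in all 4 libraries was found for 11 cluster genes and 4 variants. A count of 3 in a library would have given at most 0.561 TPM for these cluster genes and 0.619 for these variants.

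**Figure D1:**
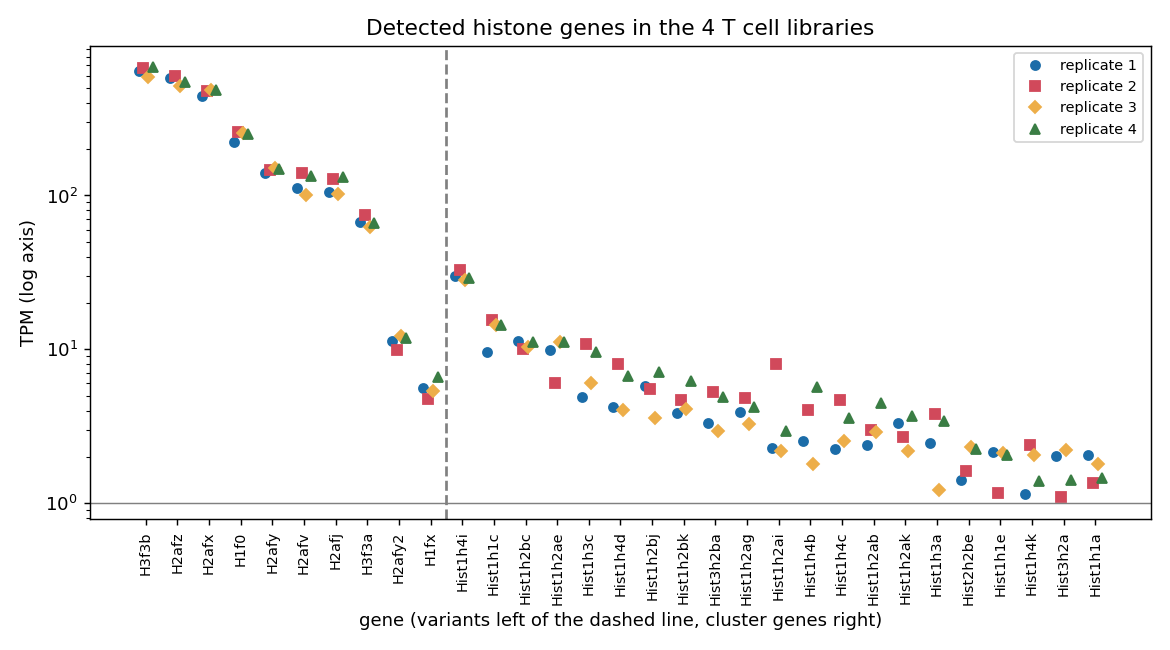
TPM (log axis) of the 31 detected histone genes in each of the 4 libraries, variants on the left and cluster genes on the right, with 1 symbol for each replicate. The horizontal line marks 1 TPM; 8 variants lie above every cluster gene, and H2afy2 and H1fx lie among the cluster genes.

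Within the cluster, H4 was the class with the highest sum. The H4 genes summed to 43.8, 57.2, 42.0 and 53.0 TPM in replicates 1 to 4 (mean 49.0 ± 7.26), of which Hist1h4i gave the larger part. H2B genes summed to 34.0 ± 4.29 TPM, H2A genes to 29.3 ± 1.94, H1 genes to 20.1 ± 3.67 and H3 genes to 19.8 ± 6.01. H3 had the highest coefficient of variation among the cluster classes (30.3%, against 14.8% for H4), from 14.8 TPM in replicate 1 to 26.9 in replicate 2. By chromosome, the 52 Hist1 genes of chromosome 13 summed to 141 ± 19.7 TPM. The 10 Hist2 genes of chromosome 3 gave 5.16 ± 1.21, the 2 Hist3 genes of chromosome 11 gave 5.78 ± 0.644 and the 1 Hist4 gene of chromosome 6 gave 0.131 ± 0.110. Where a class also has variants, the cluster genes were a small part of it: 7.34 ± 0.874% of H1 TPM, 2.01 ± 0.143% of H2A TPM and 2.67 ± 0.657% of H3 TPM. No member is a variant of H2B or H4.

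**Figure D2:**
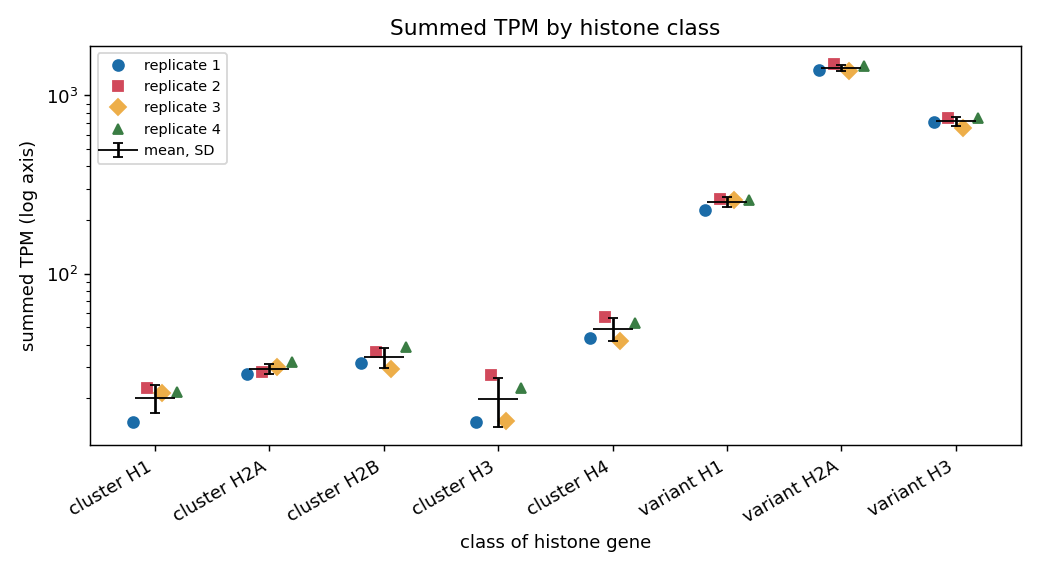
Summed TPM (log axis) of the histone genes of each class in the 4 libraries, 1 symbol for each replicate, with a bar at the mean and the SD over the 4. The 5 cluster classes have means of 19.8 to 49.0 TPM and the 3 variant classes means of 253 to 1430 TPM.

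Single genes made up much of the cluster sum. Hist1h4i, an H4 gene (chr13:22040636-22041362, minus strand, mm10), lay at 30.0, 32.5, 28.2 and 29.0 TPM (mean 29.9 ± 1.87) and gave 19.9 ± 2.32% of the cluster sum. The 5 highest genes gave 47.3 ± 3.65%. Without Hist1h4i the other 64 genes summed to 122 ± 19.4 TPM.

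The linker histone gene Hist1h1c (chr13:23738808-23740367, plus strand), which encodes H1.2, was at 9.63, 15.4, 14.4 and 14.4 TPM, lowest in replicate 1. It was 2.33 ± 0.48 above Hist1h1e, which encodes H1.4, on the log2(TPM + 1) scale and higher in 4 of 4 libraries (exact sign-flip permutation test, p = 0.13, 0.13 adjusted by Benjamini-Hochberg over 8 pairs of genes). Hist1h1e itself was at 2.15, 1.16, 2.11 and 2.07 TPM. Hist1h1a was the third detected H1 gene, at 1.66 ± 0.316 TPM. Hist1h1d and Hist1h1b had counts but were below 1 TPM in at least 1 library, and the testis gene Hist1h1t had 0 counts.

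Among the H2B genes, Hist1h2bc (chr13:23684199-23692488, plus strand) was the highest, at 11.3, 10.01, 10.3 and 11.2 TPM, and varied least of the 21 detected cluster genes (coefficient of variation 5.94%). Its gene model has 2 exon blocks, and no stem-loop was found in its vM21 transcript. In all, 5 cluster genes have more than 1 exon block. The other 4 were Hist1h2be (0.321 ± 0.0426 TPM), Hist1h2bp (0.252 ± 0.0636), Hist1h2bq (2 counts in all) and Hist1h2br (0 counts). Hist1h2bj lay at 5.79, 5.48, 3.57 and 7.15 TPM, lowest in replicate 3. Hist1h2bk had a mean of 4.71 ± 1.05 and Hist3h2ba of 4.10 ± 1.16.

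Among the H2A genes, Hist1h2ae (chr13:23570662-23571121, minus strand) lay at 9.85, 6.06, 11.2 and 11.1 TPM, lowest in replicate 2. Hist1h2ag was at 3.93, 4.85, 3.26 and 4.23 TPM. Hist1h2ai was at 2.27, 8.03, 2.19 and 2.93 TPM, so replicate 2 was the high library and the other 3 lay close together. Hist1h2ab (3.19 ± 0.903) and Hist1h2ak (2.97 ± 0.660) followed.

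Among the H3 genes, Hist1h3c (chr13:23745013-23745501, minus strand) was at 4.88, 10.8, 6.02 and 9.64 TPM, with replicates 2 and 4 above replicates 1 and 3. Hist1h3a, the other detected H3 gene, was at 2.46, 3.83, 1.21 and 3.44 TPM with the same libraries high. After Hist1h4i the next H4 gene was Hist1h4d (chr13:23581598-23581990, plus strand), at 4.25, 8.03, 4.02 and 6.69 TPM. Hist1h4b lay at 2.55, 4.05, 1.81 and 5.71 TPM and Hist1h4c at 2.26, 4.70, 2.54 and 3.55 TPM. In these 5 genes each of replicates 2 and 4 was above each of replicates 1 and 3. The order was not particular to them. Of the detected cluster genes, Hist1h1c, Hist1h2ag, Hist1h2ai, Hist1h2ab, Hist1h2bk and Hist3h2ba had it too, and of the variants H3f3b, H2afv and H2afj. The other detected H4 genes did not have this order. Hist1h4i was lower in replicate 4 than in replicate 1, and Hist1h4k lay at 1.15, 2.38, 2.07 and 1.38 TPM.

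The summed cluster level was also higher in replicates 2 and 4 than in replicates 1 and 3, as was the variant sum. Relative to each gene's own mean log2 TPM, the 21 detected cluster genes had medians of -0.25, 0.12, -0.18 and 0.26 in replicates 1 to 4, and the 10 detected variants -0.04, 0.06, -0.08 and 0.05. The 288 other detected protein-coding genes with under 1000 counted bases had medians of -0.01, 0.12, -0.17 and 0.06. The 7379 with 3000 bases or more had 0.03, -0.08, 0.09 and -0.03. The order of the libraries thus moved with counted length over all genes, and the part of length in the histone values was not tested.

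The H3.3 genes encode the same protein and replace H3 outside replication, and the level rested on H3f3b. H3f3b (chr11:116021912-116027962, minus strand) lay at 642, 677, 593 and 680 TPM (mean 648 ± 40.5) and was the highest member. H3f3a (chr1:180800832-180813943, minus strand) lay at 67.6, 74.3, 62.4 and 66.4 TPM (mean 67.7 ± 4.97). H3f3b gave 90.5 ± 0.411% of the summed TPM of the 2 genes and was 3.24 ± 0.07 higher on the log2(TPM + 1) scale in 4 of 4 libraries (exact sign-flip permutation test, p = 0.13, adjusted 0.13).

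H2A.Z, often placed at gene starts, is encoded by a pair of genes. H2afz (chr3:137864487-137866922, plus strand) lay at 583, 599.9, 518 and 550.1 TPM (mean 563 ± 36.2). H2afv (chr11:6427229-6444443, minus strand) was at 111, 139, 99.98 and 134 TPM, high in replicates 2 and 4. H2afz gave 82.4 ± 1.82% of the 2 and was higher by 2.22 ± 0.18 on the log2(TPM + 1) scale in 4 of 4 libraries (exact sign-flip permutation test, p = 0.13, adjusted 0.13).

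H2A.X, phosphorylated at DNA breaks, is encoded by H2afx (chr9:44334694-44336077, plus strand), which lay at 439.8, 477, 486 and 483 TPM. It was the third highest member and held 10212 to 18585 counts per library. H2afz exceeded it by 0.25 ± 0.14 on the log2(TPM + 1) scale, in 4 of 4 libraries (exact sign-flip permutation test, p = 0.13, adjusted 0.13). H2afx is the variant with the stem-loop, shown above, and its counted model runs 822 bases past it and has a poly(A) signal near its end. H2afj, at 105, 128, 103 and 132 TPM, was below H2afx in 4 of 4 libraries, by 2.01 ± 0.17 on that scale (exact sign-flip permutation test, p = 0.13, adjusted 0.13).

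The macroH2A genes encode H2A with a large added domain. H2afy lay at 139, 147, 150.0 and 149 TPM (mean 146 ± 4.93), and H2afy2 at 11.3, 9.85, 12.1 and 11.9 TPM. H2afy was higher by 3.58 ± 0.13 on the log2(TPM + 1) scale in 4 of 4 libraries (exact sign-flip permutation test, p = 0.13, adjusted 0.13). The H2A.B genes H2afb1, H2afb2 and H2afb3 of the X chromosome, known from testis, had 0 counts in all libraries.

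Of the H1 variants, H1f0, known from cells that have left the cycle, was the highest. It lay at 223, 257, 255 and 252 TPM, lowest in replicate 1 (mean 247 ± 16.2). H1fx was at 5.63, 4.78, 5.37 and 6.60 TPM and was 5.24 ± 0.20 below H1f0 on the log2(TPM + 1) scale, lower in 4 of 4 libraries (exact sign-flip permutation test, p = 0.13, adjusted 0.13). Hist1h1c exceeded H1fx by 1.12 ± 0.35 on that scale in 4 of 4 libraries (exact sign-flip permutation test, p = 0.13, adjusted 0.13), so the highest H1 gene of the clusters lay between H1fx and H1f0. The oocyte gene H1foo was at 0.216 ± 0.172 TPM with 22 counts in all, and the testis gene H1fnt had 0 counts.

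The counted gene models differ in how far they run past the stem-loop. In 43 cluster genes the counted exons hold it. In 25 of these they run more than 30 bases past it, with 6 detected and a median of 0.698 TPM. In the other 18 they end within 30 bases, with 9 detected and a median of 2.17 TPM. The longer models nevertheless hold the 2 highest cluster genes: Hist1h4i has 330 counted bases past the stem-loop and Hist1h1c 840, each with a poly(A) signal (AATAAA or ATTAAA) in the last 50 bases of a transcript. Such a signal was present in 17 of 65 cluster genes, 6 of them detected, with a median of 0.323 TPM. Of the 48 cluster genes without it, 15 were detected, with a median of 1.03 TPM. Among the 15 variants it was present in 11, including all 10 detected ones. Since TPM divides by counted length, a model longer than the message lowers its value. For 14 cluster genes the vM21 transcripts cover over 100 bases more than the counted model, and reads in those bases were not counted, as for Hist1h4d with 393 counted bases against 1138. The 5 genes with more than 1 exon block had a median of 0.252 TPM, against 1.27 in the other 60.

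**Figure D3:**
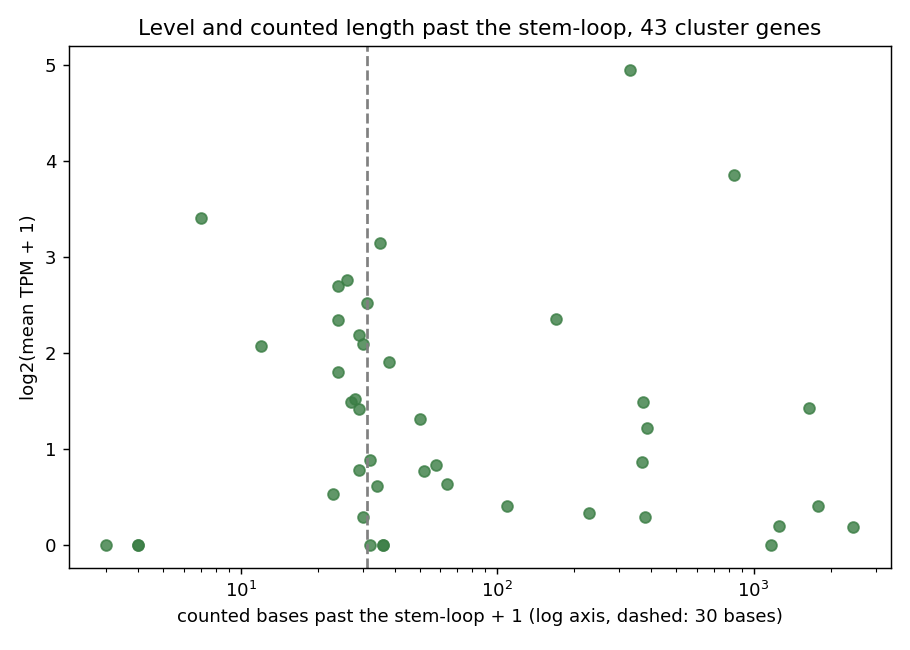
Mean level, as log2(mean TPM + 1), of the 43 cluster genes whose counted model holds the stem-loop, against the counted bases past it plus 1 (log axis), 1 point per gene. The dashed line is at 30 bases; Hist1h4i at 330 bases and Hist1h1c at 840 bases are the 2 highest points.

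Cluster genes are near copies of each other, and the counting gave no reads to a gene when they aligned to several places. Words of 50 bases from each gene's transcripts were compared with those of all other genes, on either strand. The other gene could be of any kind, so the share is not limited to copies among the members. Of 12 cluster genes with over 90% of words found in another gene, 1 was detected (Hist1h2ai, 90.1%) and 5 had 0 counts. Of 22 genes with 50 to 90%, 7 were detected, and of 31 with at most 50%, 13 were. Medians were 0.236, 0.810 and 1.66 TPM in that order. All words of Hist2h2aa1, Hist2h2aa2, Hist2h3c1, Hist2h3b and Hist2h2bb were shared, and the first 3 of these had 0 counts, so their level cannot be read from these tables. For Hist2h2bb the words were shared only with genes that are not members. The read length is not given in the sources used here. Over the 31 genes with the fewest shared words the sum was 108 TPM, and the variants lay 4.47 ± 0.10 above it on the log2 scale. Among the variants, 27.1% of the words of H3f3a were shared against 6.86% of those of H3f3b. For H2afz it was 35.4%, against 0% for H2afv. The part of shared words in the levels of these pairs was not tested.

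**Figure D4:**
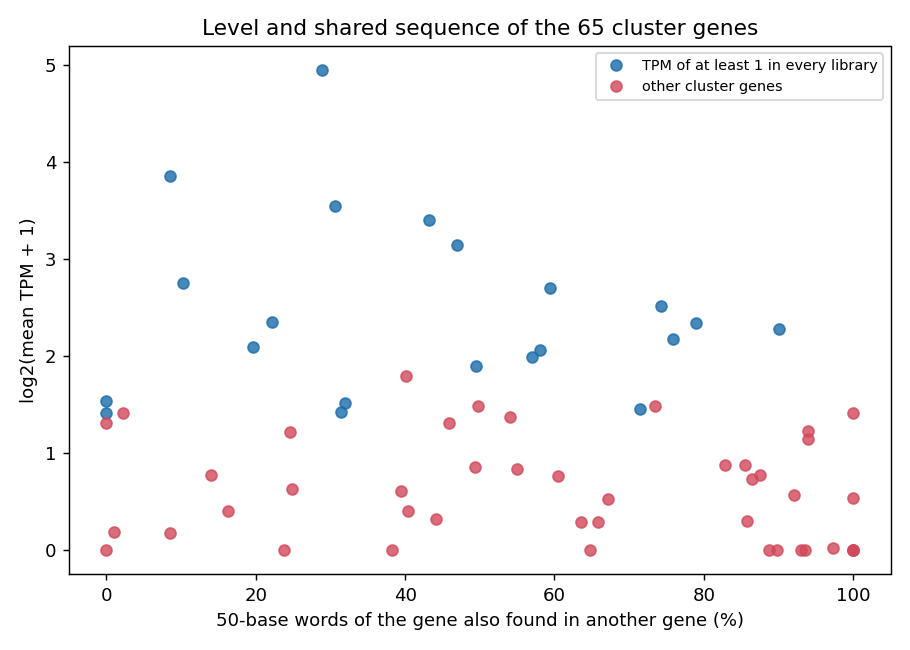
Mean level, as log2(mean TPM + 1), of the 65 cluster genes against the percent of their 50-base words found in another gene, 1 point per gene, coloured by detection. To the right of 90%, 1 of 12 genes is detected; at 50% or less, 13 of 31 are.

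H2A and H2B genes of the clusters often stand head to head and share the bases between their starts. There were 12 such pairs among the members, with gaps of 235 to 305 bases. Both genes were detected in 1 pair, Hist1h2ag and Hist1h2bj (gap 269 bases). Exactly 1 gene was detected in 6 pairs. In 1 of these, Hist1h2bg fell just under the threshold, at 0.9996 TPM (8 counts) in replicate 1 and 1.43 to 2.86 TPM in the others. The H2A gene was higher in all 4 libraries in 3 pairs, by most for Hist1h2ae (9.56 ± 2.42 TPM) over Hist1h2bg (1.81 ± 0.800). The H2B gene was higher in all 4 libraries in 4 pairs, by most for Hist1h2bc (10.7 ± 0.636 TPM) over Hist1h2ac (0.716 ± 0.607). Partners thus differed in both directions. The genes of a pair differ in counted length and shared words, whose part in this was not tested.

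**Figure D5:**
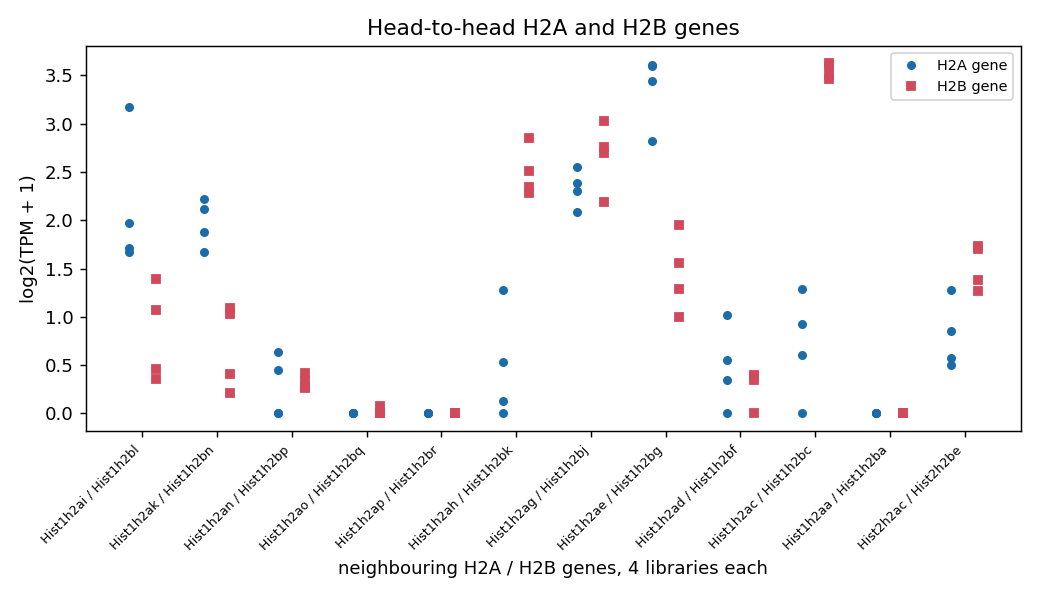
Level, as log2(TPM + 1), of the H2A and the H2B gene of each of the 12 head-to-head pairs, 1 symbol per library. Hist1h2ag and Hist1h2bj both lie above 1 TPM in all 4 libraries, while Hist1h2bc lies far above its partner Hist1h2ac.

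Promoters are shown for 3 cluster genes that differ in motifs: the one shared by the detected pair, one with both motifs and that of the highest cluster gene. The 250 bases before the start were taken from RefSeq (GRCm38.p6) for 74 members, 60 of them cluster genes. For 18 of the 74 this start lay more than 50 bases from that of the counted gene, for H3f3b 3458 bases. Capitals mark CCAAT on either strand, written ATTGG on the other, and TATAAA on the gene's strand in the last 60 bases. Neither motif contains the other.
Hist1h2bj (chr13:22042948-22043197, plus strand): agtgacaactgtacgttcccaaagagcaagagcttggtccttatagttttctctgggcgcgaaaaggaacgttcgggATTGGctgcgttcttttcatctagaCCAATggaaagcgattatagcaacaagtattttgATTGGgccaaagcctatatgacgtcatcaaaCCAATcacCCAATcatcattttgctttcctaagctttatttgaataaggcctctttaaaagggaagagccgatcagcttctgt
Hist1h4d (chr13:23581318-23581567, plus strand): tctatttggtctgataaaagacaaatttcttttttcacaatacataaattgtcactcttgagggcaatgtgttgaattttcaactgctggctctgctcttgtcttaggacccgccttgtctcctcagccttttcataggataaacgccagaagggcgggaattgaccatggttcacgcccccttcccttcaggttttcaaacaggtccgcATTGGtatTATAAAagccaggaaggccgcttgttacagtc
Hist1h4i (chr13:22041363-22041612, minus strand): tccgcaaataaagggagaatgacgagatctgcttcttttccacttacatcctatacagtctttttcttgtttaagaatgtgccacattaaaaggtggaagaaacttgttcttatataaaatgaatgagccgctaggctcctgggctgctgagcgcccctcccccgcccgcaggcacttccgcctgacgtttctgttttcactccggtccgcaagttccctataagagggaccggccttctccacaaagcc
The interval before Hist1h2bj holds CCAAT 5 times and no TATAAA in its last 60 bases, and that of Hist1h4d holds both motifs. That of Hist1h4i holds no CCAAT and no TATAAA in its last 60 bases, although the letters TATAAA occur farther from the start. CCAAT was in 81.7% of the 60 cluster promoters, 64.3% of the 14 variant promoters and a promoter of 37.5% of all 27025 genes. TATAAA was in 28.3%, 7.14% and 3.44%, and both together in 26.7%, 7.14% and 1.28%. The 1 variant with TATAAA was H3f3b, and the search in the last 60 bases depends on the start used. For all genes a motif counted if any promoter of the gene held it, while each member was scored on its nearest promoter alone. The shares are therefore not measured alike. By class of cluster gene, CCAAT was present in all 6 H1, 18 H2A and 14 H2B promoters and in 8 of 10 H3 promoters. It was absent from 9 of the 12 promoters of H4 cluster genes, that of Hist1h4i among them.

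Genes that vary between libraries more than others of their level were sought with edgeR, by setting each gene's deviance from a single mean against the dispersion trend. Of 13681 genes tested, 105 passed at an adjusted p of 0.05 (0.767%). The count was 49 without replicate 1, 52 without replicate 2, 95 without replicate 3 and 43 without replicate 4. Of the members, 31 were tested, 21 cluster genes and 10 variants, and 0 passed, while 3 of the 31 had an unadjusted p under 0.05, as had 922 of the 13681 genes (6.74%). These were H2afv (adjusted p = 0.0793), H2afj (adjusted p = 0.233) and Hist1h2ai (adjusted p = 0.333), by edgeR with Benjamini-Hochberg adjustment over the 13681 genes. With DESeq2 size factors 0 members passed as well. With a single dispersion for all genes 617 genes passed and 3 of them were members, Hist1h2ai (adjusted p = 0.000477), Hist1h3c (adjusted p = 0.0206) and Hist1h4b (adjusted p = 0.0332). Without replicate 2 the adjusted p of Hist1h2ai was 1.00 by the same edgeR test. Detected cluster genes had a median coefficient of variation of 26.9% between libraries and detected variants one of 6.95%, with counts per library from 6 and from 91 upwards. In simulated counts of 13681 genes, the test found 80.0% of genes changed by a factor of 2 and 24.0% of those changed by 1.5, each in 2 of the 4 libraries. The changed genes were drawn from all genes tested, and their counts followed the dispersion trend exactly. The share found among genes with counts as low as those of the cluster genes was not measured.

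Genes that make and end cluster messages were all present. Of 16 genes for histone pre-mRNA processing, 16 were detected, with a median of 70.4 TPM. Slbp, which binds the stem-loop, lay at 72.4, 69.6, 71.5 and 67.0 TPM. Srrt, of the cap-bound complex, was the highest at 218 ± 14.3 TPM, before Ncbp1 (203 ± 8.09), a cap-binding protein, and Cpsf3 (195 ± 10.7), the nuclease that cuts the message. Zfp473, a zinc finger protein of the U7 complex, was the lowest at 1.97 ± 0.191 TPM. None of the 16 passed the variability test or had an unadjusted p under 0.05.

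Histone chaperones carry histones to and from DNA, and 27 of 27 examined were detected, with a median of 87.3 TPM. Ssrp1 (550 ± 21.5 TPM), of the FACT complex, was highest, before Rbbp7 (518 ± 23.7) and Anp32e (347 ± 24.8), which removes H2A.Z. Asf1b, which hands H3 and H4 to assembly factors, was at 136 ± 1.37 TPM, and Srcap, the H2A.Z exchange enzyme, was the lowest at 5.54 ± 1.26. One gene of this list passed the variability test: Ubn2, of the H3.3 complex of Hira, at 19.0, 11.9, 16.7 and 13.9 TPM (edgeR, adjusted p = 0.0422). Its adjusted p was 0.997 without replicate 1, 0.347 without replicate 2, 0.00962 without replicate 3 and 0.148 without replicate 4. It was 0.456 with a single dispersion for all genes and 0.0561 when only genes averaging 50 counts or more were tested.

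Of 7 genes for the centromeric histone and its loading, 7 were detected. Cenpa, the centromeric H3, was at 114, 110 and 96.8 TPM in replicates 1 to 3 and at 99.7 in replicate 4. Hjurp, its chaperone, was higher at 192 ± 19.5 TPM, and Oip5 was at 49.4 ± 3.71. Of 18 S phase genes, 18 were detected, with a median of 178 TPM. Pcna, the sliding clamp of replication, lay at 512, 519.5, 461 and 478 TPM, Mcm3 at 515 ± 23.7, Rrm2 at 502 ± 11.3 and E2f1, the lowest, at 48.6 ± 2.64. Their sum had a low of 4077 TPM in replicate 2, close to 4083 in replicate 4, and a high of 4296 in replicate 3. Mki67 of this list lay at 283, 188, 278 and 225 TPM, so the low in replicate 2 rests in part on this gene. The 4 libraries are too few for a correlation.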

How the data were processed

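The tables hold raw counts of read pairs per gene as deposited by the authors. Per the file headers, featureCounts v1.4.6-p4 counted pairs with both ends aligned, on the reverse strand, over the exons of GENCODE vM13, with no option that keeps reads of several places or several genes. The labels give the assembly mm10, and the aligner is not given in the sources used here. The 4 libraries had 49613182 to 94222415 counts, the largest 1.90 times the smallest. TPM was computed from counts and counted length over all 50600 genes. Of these, 50376 matched GENCODE vM21, which gave names, types and transcripts. A gene was detected at 1 TPM in every library. Groups of sums and gene pairs (pseudocount 1) were compared by exact two-sided sign-flip permutation tests over the libraries. Variability was tested with edgeR 4.0.16 (R 4.3.3) against a dispersion trend, with Benjamini-Hochberg adjustment, and checked on simulated data; DESeq2 1.42.0 gave other size factors. Python 3.11.15 was used for the rest. Alternatives covered detection thresholds, TPM scaling, pseudocount, dispersion, filters and leaving out each library.

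The text names every variant, the 15 cluster genes of highest mean, cluster genes with several exon blocks, both genes of each of 8 pairs, and of each list the first, the 3 highest and the lowest gene. A gene that this rule names is not reported here. Other genes named were chosen after their values were seen. Members, lists and pairs were chosen with earlier results of these data known. Intervals and floors cover counting error only.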

Additional observations from a re-analysis of the deposited data

Results flagged for a closer look

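In 70 sets of 4 values (single genes and sums), 5 had a library whose gap to its nearest neighbour exceeded Dixon's limit as a share of the range, where chance flags about 1 in 20. Hist1h2ai had 8.03 TPM in replicate 2, against 2.19 to 2.93 in the others. Hist1h1e had 1.16 TPM in replicate 2, below the others. Hist1h3g, an H3 gene that was not detected in every library, had 3.91 TPM in replicate 2 and at most 1.01 elsewhere. H1f0 had 223 TPM in replicate 1, below the others, and the sum of H1 variants, which H1f0 makes up almost alone, had 228 TPM there.

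Of 9 entries whose symbols match the same pattern but that are not protein-coding, 5 had more than 3 counts in a library. The highest count was 36 for the pseudogene H3f3a-ps1, 18 for the antisense gene H3f3aos, 13 for the pseudogene H3f3c, 5 for the pseudogene Hist1h2aj and 5 for the pseudogene Hist3h2bb-ps. H3f3a-ps1 had at least 8 counts in every library and H3f3aos at least 6. Reads of a gene and its near copies can be exchanged.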

How the results depend on the processing

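Of 98 alternative values, 89 kept their direction and their side of the threshold or stayed within the spread allowed, and 0 reversed. All 48 values for the 8 gene pairs were among those that kept, but this outcome was fixed beforehand. Each pair had the same direction in all 4 libraries, which no change of pseudocount, scaling or library set could reverse. The smallest sign-flip p was 0.13 with 4 libraries and 0.25 with 3, so none could cross the threshold. The same holds for variants against cluster genes when a library was left out. At a threshold of 5 TPM, 4 cluster genes and 9 variants were detected, and at 0.5 TPM 29 and 10. The share of all protein-coding genes at these 2 thresholds was not computed. Among the cluster genes with at most 50% of words shared, a choice made after seeing the data, 13 were detected at 1 TPM. Scaled over protein-coding genes alone, the variants summed to 2535 TPM. With a common dispersion 617 genes and 3 members passed the variability test. Leaving out 1 library gave 43 (without replicate 4) to 95 variable genes (49 without replicate 1 and 52 without replicate 2) and 0 members each time. The median of cluster genes with longer models was 0.182 TPM when length of at least 1000 bases defined them. As counts scaled by library with TMM factors and not divided by length, the log2 difference between variants and cluster genes was 5.77. Without Hist1h4i, a choice made after seeing the data, it was 4.31. No paired analysis was possible because there is 1 group. Depth limits the low cluster genes: the detected ones had as few as 6 counts in a library.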
